A study of Mus musculus with 58 samples.

Results

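A set of 9 genes of the naive pluripotent state was followed through exit from pluripotency: Nanog, Klf2, Klf4, Klf5, Esrrb, Zfp42, Tfcp2l1, Tbx3 and Prdm14. They were chosen by name, and these 9 rows were read from the total count of every count file, out of 22556 genes counted. All 9 passed the filter on low counts and were among the 16227 genes tested. Chromatin-associated RNA (ChrRNA-seq), which holds nascent transcripts with their introns, was sequenced from female mouse embryonic stem (ES) cells that carry a 129S-derived (Dom) and a Castaneus (Cast) genome. A doxycycline-inducible promoter drives Xist, the RNA that silences an X chromosome, on the Dom X. ES cells were taken without doxycycline (day 0) and after 1 day of it (day 1) in serum and LIF, and after 3 and 6 days with doxycycline in a protocol for neural precursor cells (NPC), which uses N2B27 medium without LIF. Medium, day and doxycycline change together between ES day 0 and NPC, and their effects cannot be told apart.

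The 58 libraries form 28 groups from 6 lines. WT is the parental line and was sampled as NPC. SPOC carries point mutations in the SPOC domain of SPEN that abolish its contact with the SMRT and NCoR corepressors. It was sampled as clones C11, D9 and H1 in ES cells and as D9 and H1 in NPC. PCGF35 carries an FKBP12 degron on the Polycomb proteins PCGF3 and PCGF5, which dTAG-13 removes, and PCGF35_SPOC adds the SPOC mutation in clones F10 and F6. Both lines were sampled on all 4 days without and with dTAG-13, which was added 12 hours before doxycycline and kept in the medium. At ES day 0 no doxycycline was given. The headers of the 4 dTAG-13 ES files of PCGF35_SPOC name 36 hours of dTAG-13 in both clones. The labels give the dTAG-13 dose as 100 uM, and this unit could not be checked against the files. DelPID lacks the Xist region through which Polycomb is recruited and was sampled as NPC. DelPID_SPOC adds the SPOC mutation in clones A8 and G3 and was sampled on all 4 days. The study describes clone G of this line, taken here as G3, as tetraploid. Every group holds 2 libraries except the SPOC ES groups, which hold 3. All lines were made from a parental clone by genome editing, so that a line effect and a clone effect cannot be told apart, and in the lines named with SPOC a replicate is a clone. The ES cells were grown on feeders that were removed by pre-plating.

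Naive pluripotency is held by a network of transcription factors that activate each other and are fed by LIF through STAT3 and by the loss of TCF7L1 repression. When LIF is withdrawn the network is dismantled, cells pass through a formative state and, in N2B27, most take a neural fate. Nanog is a homeodomain factor at the centre of this network, and Esrrb, Klf2, Klf4, Klf5, Tfcp2l1 and Tbx3 can each delay exit when overexpressed. Prdm14 represses FGF signalling and de novo DNA methylation, and Zfp42 (Rex1) is a zinc finger gene widely used as a reporter of the naive state.

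The windows at the start sites of 4 members are shown because each holds a letter match for a factor of this network. They run from 250 bases before to 50 bases after the RefSeq start on GRCm38.p6 (mm10, the build of the count files), and 6 of the 9 members had an entry. Capitals mark matches on either strand to TTTGCAT (the POU part of the octamer that OCT4 reads), GGGNGTGG (KLF factors) or TTCNNNGAA (STAT3).
Nanog (chr6:122707239-122707538, plus strand): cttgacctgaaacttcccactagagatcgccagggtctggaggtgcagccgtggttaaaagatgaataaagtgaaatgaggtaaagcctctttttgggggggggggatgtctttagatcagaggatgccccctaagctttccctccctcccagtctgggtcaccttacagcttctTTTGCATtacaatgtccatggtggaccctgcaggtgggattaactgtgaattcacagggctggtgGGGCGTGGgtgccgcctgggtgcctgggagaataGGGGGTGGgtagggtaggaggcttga
Zfp42 (chr8:43306960-43307259, minus strand): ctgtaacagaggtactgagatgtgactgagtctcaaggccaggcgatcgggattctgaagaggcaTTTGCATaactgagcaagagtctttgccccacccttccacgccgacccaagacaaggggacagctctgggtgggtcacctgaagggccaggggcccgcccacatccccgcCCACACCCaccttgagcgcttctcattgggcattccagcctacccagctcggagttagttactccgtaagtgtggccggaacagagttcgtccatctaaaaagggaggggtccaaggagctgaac
Tfcp2l1 (chr1:118627695-118627994, plus strand): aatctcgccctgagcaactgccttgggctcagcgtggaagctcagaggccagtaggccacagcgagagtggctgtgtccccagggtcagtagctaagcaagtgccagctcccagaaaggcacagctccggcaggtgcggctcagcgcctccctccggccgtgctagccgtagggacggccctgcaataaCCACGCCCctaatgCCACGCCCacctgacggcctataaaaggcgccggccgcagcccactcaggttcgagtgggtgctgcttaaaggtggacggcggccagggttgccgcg
Esrrb (chr12:86360867-86361166, plus strand): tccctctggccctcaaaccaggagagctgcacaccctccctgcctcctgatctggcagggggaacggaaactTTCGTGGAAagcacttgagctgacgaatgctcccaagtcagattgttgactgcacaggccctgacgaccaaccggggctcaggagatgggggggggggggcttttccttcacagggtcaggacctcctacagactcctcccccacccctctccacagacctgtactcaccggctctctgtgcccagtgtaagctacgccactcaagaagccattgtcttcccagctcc
TTTGCAT stood in the Nanog and Zfp42 windows and in 4.63% of all 32851 promoter windows of the same length. GGGNGTGG stood in Nanog, Zfp42 and Tfcp2l1 and in 17.6% of all windows. TTCNNNGAA stood in the upstream Esrrb window and in 8.3% of all windows. AAGGTCA, the sequence ESRRB reads, stood in none of the members' windows and in 4.72% of all windows. The windows of Klf2 and Klf4 held no match to these letters. A match is a stretch of letters and not a shown binding site.

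The count files gave between 2.29 and 30.0 M fragments per library (M, mega; median 15.9 M), with the shallowest library in DelPID (2.29 M for NPC day 6 replicate 1). Xist stood at 34.2 to 135 CPM (counts scaled to a common library total) in the 13 libraries without doxycycline and at 2377 to 13370 CPM in the 45 with it. ES replicate 1 of PCGF35 with dTAG-13 also held Xist fragments from Cast. They numbered 314 beside 522 from Dom at day 0, and 3925 beside 15142 at day 1. In replicate 2 the Cast fragments numbered 2 and 13. The cause was not tested. Spen stood at 199 to 848 CPM in the 34 libraries of lines with the SPOC mutation and at 71.4 to 208 CPM in the other 24, and point mutations cannot be read from gene counts. In mm10 the files place Nanog at chr6:122707488-122714633, Klf2 at chr8:72319061-72321654, Klf4 at chr4:55527136-55532475, Klf5 at chr14:99298690-99313409 and Esrrb at chr12:86361116-86521628. Zfp42 lies at chr8:43295066-43307009, Tfcp2l1 at chr1:118627944-118685168, Tbx3 at chr5:119670861-119684724 and Prdm14 at chr1:13113427-13127163. Counts cover each whole gene, exons and introns, and no member overlapped another annotated gene. Levels below are CPM scaled by TMM, a correction for differences in library composition. In these bulk libraries, fewer cells that express a gene and less RNA per cell cannot be told apart.

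In ES cells at day 0 the members differed widely in level. Per kilobase of gene, Zfp42 had the highest level, with a median of 47.3 CPM per kb over 13 libraries (38.8 to 93.2), and Prdm14 had the lowest, with a median of 2.34 (1.71 to 4.77). Klf2 (median 9.49), Klf4 (9.43), Klf5 (8.10) and Nanog (7.52) lay close together with overlapping ranges. Tfcp2l1 (4.92), Tbx3 (3.49) and Esrrb (3.10) were lower per kb. Esrrb is a long gene of 160513 bases, so that its counts were high while its level per kb was low.

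Over the 28 groups, the lowest mean was that of untreated PCGF35 at NPC day 6 for 8 of the 9 members, and at NPC day 3 for Klf5. The highest mean was in an ES group for every member except Klf2, whose highest mean was in DelPID_SPOC at NPC day 6. The ratio of highest to lowest group mean ran from 3.83 for Esrrb to 24.4 for Tbx3. Of the 27 steps between neighbours in this order, 24 to 26 per member joined groups whose libraries overlapped.

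**Figure D1:**
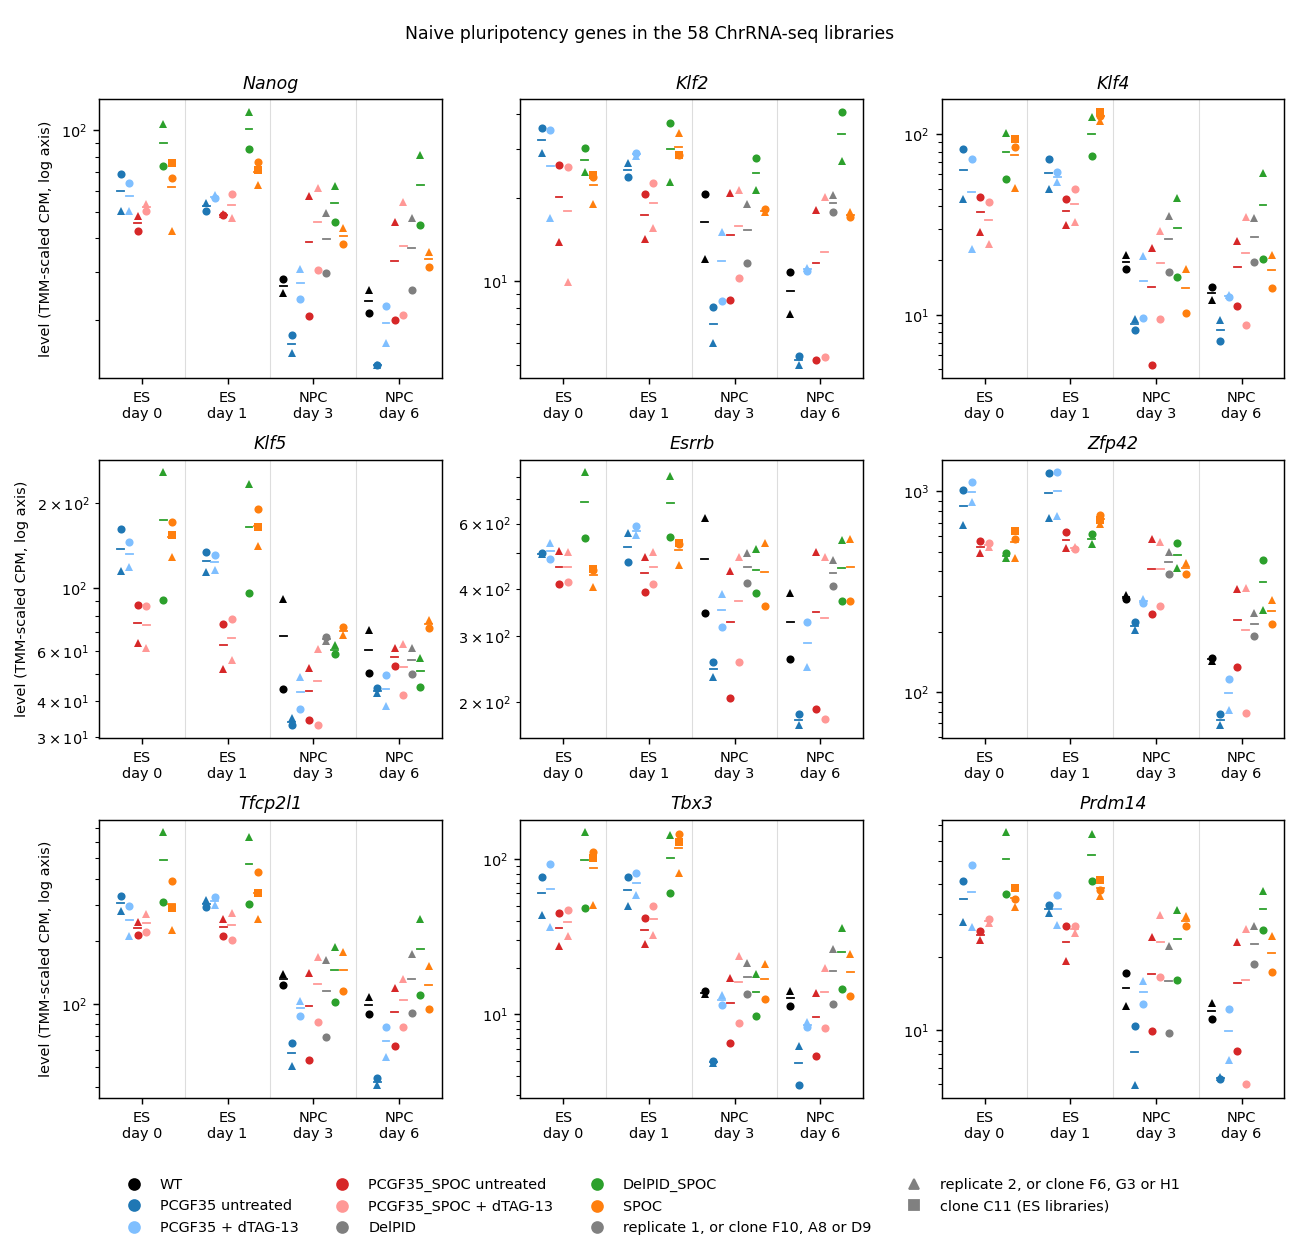
Level of each member (TMM-scaled CPM, logarithmic axis) in the 58 libraries by stage. Points are libraries, coloured by line and treatment, with shape giving the replicate or clone, and short bars are group means. The 2 untreated PCGF35 libraries (darker blue) are the lowest of the NPC day 6 libraries for most members, and the DelPID_SPOC libraries (green) are among the highest.

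All 9 members fell between ES day 0 and NPC day 3 and all 9 were lower at NPC day 6, as means over the 6 arms (line and treatment) that have ES and NPC libraries. In this comparison 29.1% of all genes tested were lower and 26.4% higher at NPC day 3, and 29.4% were lower and 29.4% higher at NPC day 6 (edgeR quasi-likelihood test, Benjamini-Hochberg adjusted p under 0.05 over all genes tested). The median log2 change of the members was -0.95 at day 3 and -1.21 at day 6, against -0.02 and 0.00 for all genes tested. Both days are compared with the same ES day 0 libraries. Leaving out each of the 25 libraries in turn left all 9 members lower at both days. Of the factors that can hold the naive state by overexpression, Tbx3 fell furthest and Esrrb least.

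Tbx3, a T-box factor that acts downstream of PI3K and LIF signalling, ranged from 27.6 to 149 CPM in the ES libraries (median 54.9), from 4.82 to 23.6 at NPC day 3 (median 13.4) and from 3.48 to 36.02 at NPC day 6 (median 12.3). No NPC day 3 library and 1 of 16 NPC day 6 libraries reached the lowest ES library. The mean change to day 6 was a 5.16-fold fall (log2 -2.37, SE 0.25, adjusted p = 2e-09, edgeR). Tfcp2l1, a CP2-family factor and STAT3 target, showed the same separation. Its levels were 203 to 668 CPM in ES cells (median 291), 50.7 to 188 at NPC day 3 (median 109) and 40.8 to 256 at NPC day 6 (median 92.8). It was 2.78-fold lower at day 3 and 3.20-fold lower at day 6.

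The 3 Kruppel-like factors, which bind related CACCC sequences and can replace each other in ES cells, fell by different amounts. Klf4, a direct STAT3 target, ranged from 23.1 to 132 CPM in ES cells (median 55.4), from 5.24 to 44.1 at NPC day 3 (median 17.5) and from 7.14 to 61.2 at NPC day 6 (median 14.1). It was 3.37-fold lower at day 3 and 3.03-fold lower at day 6 (adjusted p = 5.28e-06, edgeR). Klf5 ranged from 51.9 to 257 CPM in ES cells (median 117), from 32.9 to 91.7 at NPC day 3 (median 55.6) and from 38.5 to 77.2 at NPC day 6 (median 51.7). It was 2.44-fold lower at day 3 and 2.23-fold lower at day 6. Klf2, which is held by MEK inhibition more than by LIF, was 1.67-fold lower at day 3 and 1.82-fold lower at day 6. Its ranges overlapped more than those of any other member: 9.95 to 37.2 CPM in ES cells, 5.99 to 27.7 at NPC day 3 and 4.98 to 40.5 at NPC day 6, and 11 of 16 NPC day 6 libraries reached the lowest ES library.

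Nanog ranged from 42.6 to 117 CPM in ES cells (median 57.0), from 15.2 to 62.4 at NPC day 3 (median 30.8) and from 13.6 to 81.1 at NPC day 6 (median 25.8). It was 1.71-fold lower at day 3 and 2.01-fold lower at day 6 (adjusted p = 3.87e-06, edgeR). Esrrb, an orphan nuclear receptor and direct Nanog target, had the shallowest fall, 1.40-fold at day 3 and 1.53-fold at day 6 (log2 -0.61, SE 0.15, adjusted p = 0.000988, edgeR). Its median was 501 CPM in ES cells, 391 at NPC day 3 and 372 at NPC day 6, and 6 of 16 NPC day 6 libraries reached the lowest ES library. Prdm14 had a median of 32.5 CPM in ES cells, 16.3 at NPC day 3 and 15.2 at NPC day 6, and was 1.93-fold and then 2.31-fold lower.

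Zfp42 went on falling between NPC day 3 and day 6. Its median was 621 CPM in ES cells (464 to 1247), 346 at NPC day 3 (204 to 581) and 169 at NPC day 6 (68.5 to 453), and no NPC day 6 library reached the lowest ES library. Between NPC day 3 and day 6, over the 8 arms with NPC libraries, Zfp42 fell a further 2.02-fold (log2 -1.02, SE 0.15, adjusted p = 3.12e-05, edgeR), and it was the only member called among the 9. In this comparison 10.8% of all genes tested were lower and 10.6% higher. The call held in each of the 32 fits that left out a library. The other 8 members moved by log2 -0.20 to 0.05 between these days, with adjusted p from 0.329 to 1. Zfp42 was lower at day 6 than at day 3 in each arm by its group mean. In WT it went from 292 and 304 CPM to 148 and 144, in untreated PCGF35 from 224 and 204 to 77.6 and 68.5, and in DelPID_SPOC from 553 (A8) and 414 (G3) to 453 and 256. Whether the Zfp42 time course differs from that of the other members was not tested.

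The pace is described arm by arm. The share of the ES day 0 level left was computed for each NPC library, against the mean of its own arm or, in the clonal lines, its own clone, and then taken as the median over the 9 members. In untreated PCGF35 it was 24.9% and 18.6% at day 3 and 16.7% and 15.4% at day 6. With dTAG-13 it was 32.9% and 42.8% at day 3 and 32.9% and 27.0% at day 6. These values are medians over genes that move together and are given as a description.

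In SPOC the shares were 57.2% (D9) and 91.7% (H1) at day 3 and 42.2% and 67.0% at day 6. In DelPID_SPOC they were 62.2% (A8) and 48.0% (G3) at day 3 and 60.4% and 57.4% at day 6. The PCGF35_SPOC clones stood far apart. F10 kept 38.8% at day 3 and 29.4% at day 6 untreated, and 39.8% and 21.1% with dTAG-13. F6 kept 88.7% and 95.6% untreated, and 106% and 97.1% with dTAG-13. WT and DelPID have no ES library, so that no share was computed for them. Scaling by the total of each library in place of TMM changed these shares by a factor of 0.886 to 1.06. In F10 with dTAG-13 the Dom share over X genes placed before Xist was 0.517 at ES day 0. It was 0.553 at NPC day 3 and 0.589 at NPC day 6. Untreated F10 read 0.517, 0.474 and 0.352. The study reads an upward skew in NPC samples of a clone of this line as selection for cells without the Cast X. Its part in the levels left was not tested.

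**Figure D2:**
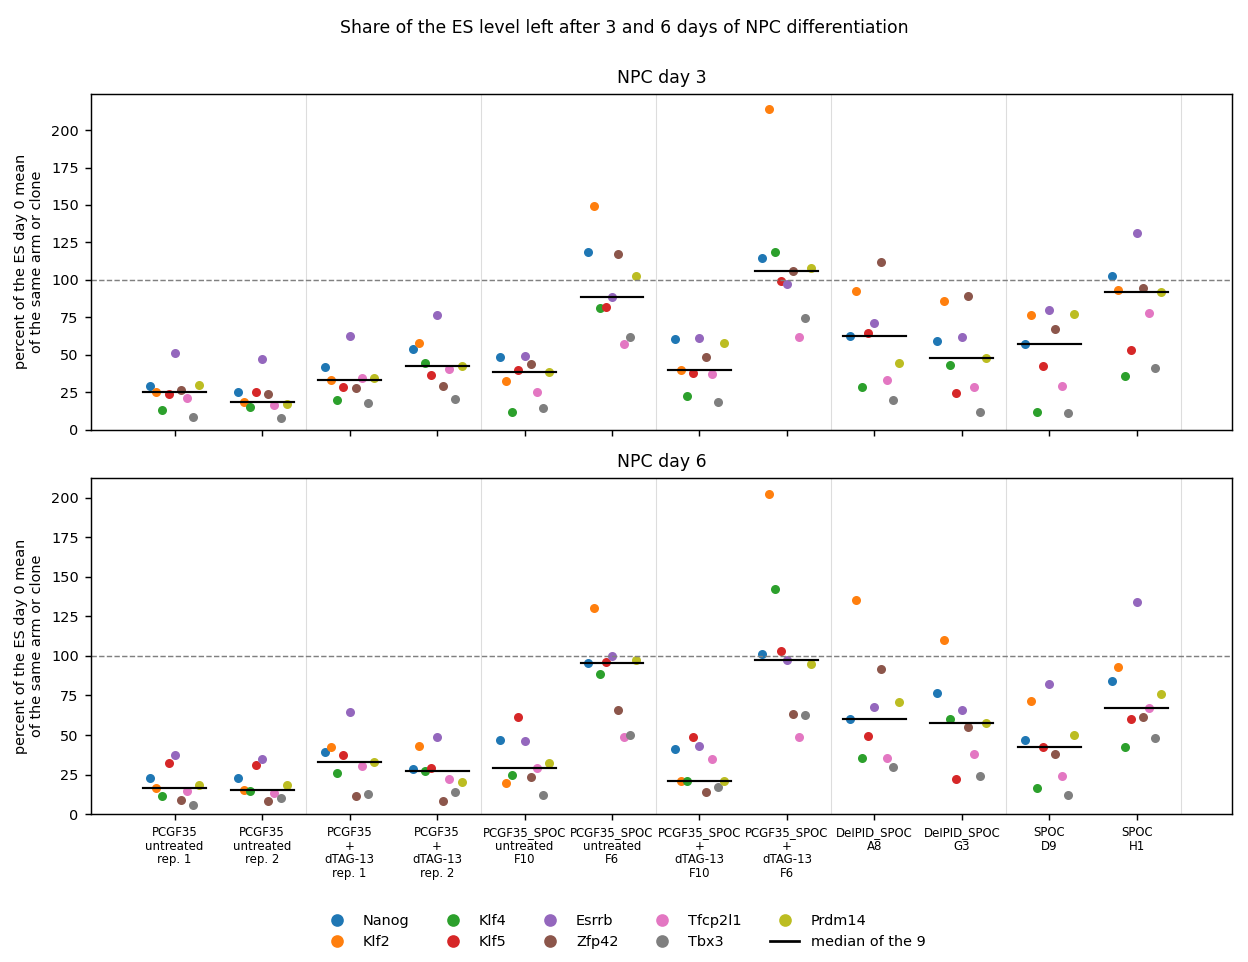
Share of the ES day 0 level left for each member in each NPC library at day 3 (top) and day 6 (bottom), in percent of the ES day 0 mean of the same arm or clone. Coloured points are members, black bars are medians of the 9, and the dashed line marks the ES level. Tbx3 (grey) is low and Esrrb (purple) high in most libraries, and clone F6 lies near the ES level in all 4 of its libraries.

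In all 8 NPC libraries of PCGF35, Esrrb kept the most of its ES level, with 34.7% to 76.7% left, and Tbx3 or Zfp42 the least. In clone F6 Klf2 kept the most and Tfcp2l1 the least. Over the 12 libraries of each day, Tbx3 had a median of 18.3% left at day 3 and 15.5% at day 6, and Esrrb 66.9% and 65.0%. Zfp42 went from 57.8% to 30.8%.

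The count of members called lower by day 6 within an arm did not follow the shares in every arm. At day 6 clone F10 kept less than any SPOC or DelPID_SPOC library, while PCGF35_SPOC had fewer members called. The count was 9 in untreated PCGF35, where 15.9% of all genes tested were lower, and 6 in PCGF35 with dTAG-13 (6.93% of all genes). It was 5 in SPOC (16.7%), 3 in DelPID_SPOC (9.42%), 0 in untreated PCGF35_SPOC (4.46%) and 1 in PCGF35_SPOC with dTAG-13 (3.01%). Klf5, Zfp42, Tfcp2l1 and Tbx3 were each called in 4 of the 6 arms. In untreated PCGF35 the falls to day 6 ran from log2 -1.47 (SE 0.39, adjusted p = 0.00512, edgeR) for Esrrb to -3.67 (SE 0.68, adjusted p = 0.000191) for Tbx3. Members called in an arm at day 3 numbered 8 in untreated PCGF35 (10.3% of all genes lower), 3 in PCGF35 with dTAG-13 (3.92%), 3 in SPOC (14.6%) and 3 in DelPID_SPOC (9.15%). It was 0 at day 3 in PCGF35_SPOC, both untreated (2.74%) and with dTAG-13 (1.47%). With the clone or parallel culture as a block, Zfp42, Tfcp2l1 and Tbx3 were called at day 6 in PCGF35_SPOC, untreated (18.4% of all genes called) and with dTAG-13 (15.9%). At day 3 the block gave 6 members in PCGF35 with dTAG-13 (15.9% of all genes), 5 in DelPID_SPOC (29.4%), 2 in untreated PCGF35_SPOC (15.9%) and 1 in PCGF35_SPOC with dTAG-13 (11.1%).

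Clone F6 is the library set that stands apart. By RNA-FISH the study found some XO cells, which lack an X chromosome, in F6 and subcloned it before ChrRNA-seq. The part of this in the members' levels was not tested. At ES day 0 the untreated Nanog level of F6 was 48.2 CPM and at NPC day 6 it was 46.1. Its Esrrb went from 506 to 505 CPM and its Klf4 from 28.9 to 25.5. Tfcp2l1 and Tbx3 were lower, from 247 to 120 CPM and from 27.6 to 13.8, and Zfp42 went from 495 to 325 CPM. In clone F10 of the same line Nanog went from 42.7 to 20.1 CPM, Esrrb from 414 to 192 and Klf4 from 45.1 to 11.2. The summed neural precursor markers also differed between these clones, already at ES day 0, with 57.0 CPM in F6 and 217 CPM in F10 without dTAG-13. Their summed level at NPC day 6 was 132 CPM in F6 and 587 CPM in F10 without dTAG-13, and 102 and 646 CPM with it. It was 607 and 317 CPM in untreated PCGF35, 211 and 118 in PCGF35 with dTAG-13, 273 and 278 in WT, 313 and 224 in DelPID, 274 and 216 in DelPID_SPOC and 155 and 115 in SPOC. At ES day 0 this sum ranged from 52.8 to 217 CPM, and its level in F10, 217 CPM, was above its NPC day 6 level in SPOC. Its part in the members' levels was not tested. Sox1, the defining neural marker, was at 0 in all 58 libraries and overlaps another annotated gene on the same strand. Zic1, Hes5 and Fabp7 had at most 2.25 CPM in any library. The NPC label comes from the sample titles and the protocol. The highest neural sums at NPC day 6, in F10 and in untreated PCGF35 replicate 1, came with the highest summed fibroblast markers. These fibroblast sums were 77.4 and 133 CPM in F10 without and with dTAG-13 and 48.8 CPM in untreated PCGF35 replicate 1. Nes, Vim, Cdh2 and Tubb3 were the 4 of 6 neural markers tested that were called higher at day 6. Pax6 was also tested and was not among those called. Its range over the NPC day 6 libraries spanned its whole range at ES day 0.

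One day of doxycycline in ES cells, which induces Xist with no change of medium, moved no member past the threshold in the fit over all libraries. In that comparison 0.0986% of all genes tested were called. The largest difference was in Klf4, log2 0.27 (95% interval -0.24 to 0.78), and the members' median was 0.06 against -0.0033 for all genes. At an unadjusted p under 0.05 there were 0 members and 655 genes. With the replicate block in a fit on these libraries alone 4 members were called, Klf4, Zfp42 and Tbx3 higher and Klf5 lower. Their log2 differences ran from -0.09 to 0.32. The share of all genes called in that fit is not given, so that the 4 calls cannot be set against it.

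PCGF3/5 removal by dTAG-13 in PCGF35 left no member past the threshold as a mean over the 4 days in the fit without a block, and no gene of the 16227 was called (0% of all genes, with 784 at an unadjusted p under 0.05 and none of them a member). All 9 differences were positive, with a median of log2 0.33 against 0.0064 for all genes. By day, the groups stood apart mainly in NPC. At NPC day 3 the dTAG-13 libraries lay above both untreated libraries for all 9 members, where 20.3% of all genes did so, and at NPC day 6 for 8 members, all but Klf5, where 26.7% of all genes did so. The parallel cultures as a block gave no member in the fit over all libraries (0.431% of all genes called). In a fit with that block on the PCGF35 libraries alone, 5 members were called, all higher with dTAG-13, where 6.86% of all genes were. They were Nanog, Esrrb, Zfp42, Tfcp2l1 and Tbx3, with log2 0.28 to 0.60 and adjusted p from 0.00509 to 0.0440 (edgeR). In ES cells the groups overlapped for all 9 members at day 0 (13.9% of all genes higher without overlap) and for 7 at day 1, the exceptions being Nanog and Klf2 (10.7% of all genes higher with dTAG-13 without overlap).

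Tbx3 had the largest mean difference. It read 76.7 and 43.4 CPM untreated and 92.5 and 36.3 CPM with dTAG-13 at ES day 0. At NPC day 3 it read 4.97 and 4.82 CPM against 11.4 and 13.4, and at NPC day 6 it read 3.48 and 6.20 against 8.27 and 8.91. Esrrb read 256 and 234 CPM untreated and 317 and 389 with dTAG-13 at NPC day 3, and 186 and 173 against 327 and 248 at day 6. Both genes overlapped between treatments in ES cells at day 0 and stood apart in NPC. The summed neural markers were lower with dTAG-13 at NPC day 6, as given above, and their part in these differences was not tested. As a mean over NPC days 3 and 6, the median difference of the members was log2 0.69, and that of all genes is not given. The adjusted p stayed above 0.05 for all 9 and no gene was called. The test of whether dTAG-13 changes the fall to day 6, over both degron lines, gave 0 members and 0 genes, with 382 genes at an unadjusted p under 0.05.

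In PCGF35_SPOC the dTAG-13 and untreated libraries overlapped for all 9 members at NPC day 3, where 12.2% of all genes were higher with dTAG-13 without overlap, and at day 6 (9.99%). Nanog read 20.8 (F10) and 57.1 (F6) CPM untreated and 30.7 and 61.5 with dTAG-13 at NPC day 3, and 20.1 and 46.1 against 20.8 and 54.4 at day 6. No member was called over the 4 days (0% of all genes called, 303 genes at an unadjusted p under 0.05). The 9 differences ran from log2 -0.07 for Zfp42 to 0.34 for Tbx3, with a 95% interval of -0.27 to 0.95 for Tbx3.

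The SPOC mutation was compared within 3 pairs of lines, as the mean of the pairs: SPOC with WT, untreated PCGF35_SPOC with untreated PCGF35, and DelPID_SPOC with DelPID. At NPC day 3 all 9 mean differences were positive and none passed the threshold, where 1.13% of all genes tested were called higher and 0.622% lower. The members' median was log2 0.41 against 0.011 for all genes. Nanog (log2 0.76, SE 0.23, adjusted p = 0.0904, edgeR) and Prdm14 (log2 0.84, SE 0.28, adjusted p = 0.132) came nearest. With the clone or parallel culture as a block both were called, at adjusted p = 0.021 and 0.0499, where 6.56% of all genes were called. This block takes the spread between clones, and between the PCGF35 cultures, out of the error. In the lines named with SPOC a clone is the replicate. Block calls between lines, here and below, therefore do not cover that spread and are no firmer than the fit without it.

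At NPC day 6 all 9 differences were again positive, with a median of log2 0.70 against 0.011, and 1 member was called, Zfp42, where 1.13% of all genes were called higher. Zfp42 read 148 and 144 CPM in WT and 220 and 286 in SPOC (D9 and H1). It read 77.6 and 68.5 CPM in untreated PCGF35 and 133 and 325 in untreated PCGF35_SPOC (F10 and F6). It read 190 and 248 CPM in DelPID and 453 and 256 in DelPID_SPOC (A8 and G3). The libraries with the mutation were the higher ones in all 3 pairs. The summed neural markers given above were lower in SPOC than in WT at this day, and their part was not tested. The mean difference was 2.06-fold (log2 1.04, SE 0.25, adjusted p = 0.0218, edgeR).

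This call did not hold in 8 of the 12 fits that left out a library, with adjusted p from 0.0506 to 0.262. The libraries were WT replicates 1 and 2, PCGF35 replicates 1 and 2, clone F6, DelPID replicate 1, clone A8 and clone H1. Without F6 the Zfp42 difference was log2 0.78, and without F6 and G3 together it was log2 0.90. Without clone F10 the difference was log2 1.00 for Nanog, 1.17 for Klf2, 0.67 for Esrrb and 1.03 for Prdm14. With the block, Nanog (log2 0.81, adjusted p = 0.0105), Zfp42 (1.01, adjusted p = 0.00271) and Prdm14 (0.81, adjusted p = 0.0443) were called, where 9.4% of all genes were.

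The pairs were also read one by one. At NPC day 6 the SPOC libraries lay above WT for 5 members, Nanog, Klf2, Klf5, Zfp42 and Prdm14, where 22.4% of all genes did so. The untreated PCGF35_SPOC libraries lay above untreated PCGF35 for 7 members, all but Klf2 and Tbx3, where 19.1% of all genes did so. The DelPID_SPOC libraries lay above DelPID for 2, Klf2 and Zfp42, where 19.2% of all genes did so. Nanog, for example, read 21.2 and 25.9 CPM in WT and 31.3 and 35.7 in SPOC, and 25.8 and 47.7 in DelPID and 44.7 and 81.1 in DelPID_SPOC. Nanog lies on chromosome 6, where the Dom share was 46.1% to 47.2% in clone G3 and 52.1% to 52.8% in A8. Klf2 and Zfp42 lie on chromosome 8, where it was 49.9% to 50.9% in G3 and 34.9% to 35.5% in A8. The part of these differences and of the ploidy of G3 in these levels was not tested. No member was called at day 6 in SPOC against WT or PCGF35_SPOC against PCGF35 alone (0% of all genes called in each), nor in DelPID_SPOC against DelPID (0.0308%). With the block Zfp42 was called in PCGF35_SPOC against PCGF35 (log2 1.55, SE 0.37, adjusted p = 0.028, edgeR), where 1.44% of all genes were. Differences between the pairs were not tested. The study differentiated WT beside SPOC, and DelPID beside its SPOC clones, but the labels do not tie a WT or DelPID replicate to a clone. These libraries were therefore compared as unpaired groups, and the block covers only clones and the PCGF35 cultures.

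In ES cells the signs were negative. In the pair with ES libraries, untreated PCGF35_SPOC against untreated PCGF35, all 9 members were lower, with a median of log2 -0.61 against 0.015 for all genes, and none passed the threshold (0.0801% of all genes called). The libraries did not overlap for 6 members at day 0, where 17.1% of all genes were lower without overlap, and for 8 at day 1 (15.2% of all genes). Klf5 differed most. It read 161 and 115 CPM in PCGF35 and 87.1 and 64.1 in PCGF35_SPOC at day 0, and 135 and 114 against 74.8 and 51.9 at day 1 (log2 -0.92, SE 0.26, adjusted p = 0.124, edgeR). With the block it was called (log2 -0.91, adjusted p = 0.025), where 5.4% of all genes were. The difference of the falls to day 6 in this pair was positive for all 9 members, with a median of log2 1.74 against 0.036 for all genes. No gene of the 16227 was called (0% of all genes), while 7 members and 1049 genes had an unadjusted p under 0.05. This comparison rests on clones F10 and F6, whose values stand apart as given above.

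**Figure D3:**
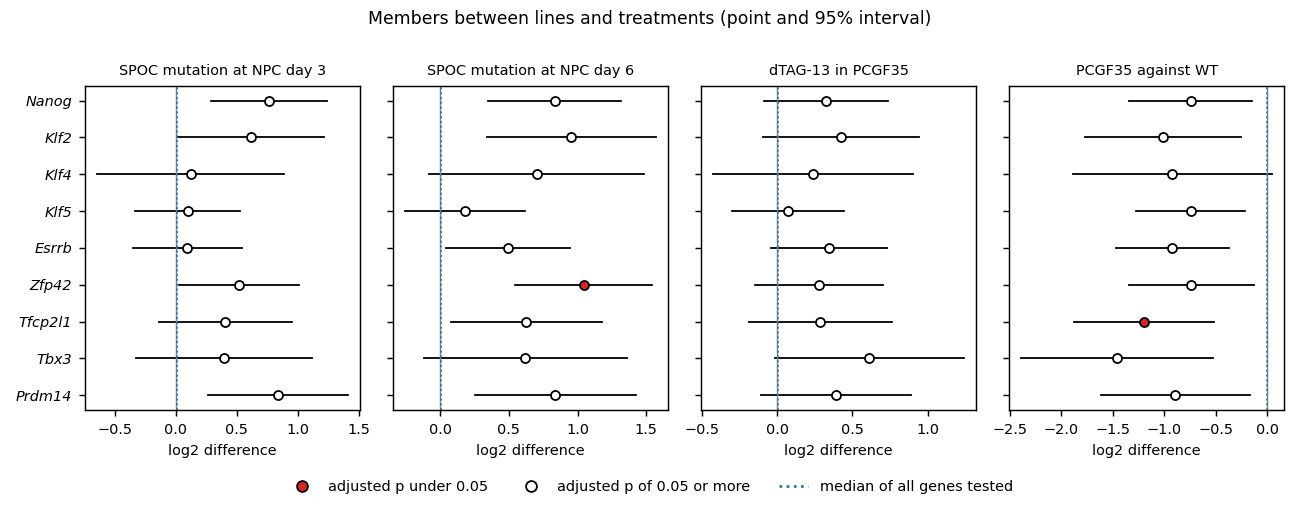
Log2 difference of each member in 4 comparisons, as means over pairs of lines or days, with the 95% interval of the edgeR fit. Red points passed the adjusted p threshold of 0.05, and the dotted line is the median of all genes tested. All 9 members lie right of 0 for the SPOC mutation and for dTAG-13 and left of 0 for PCGF35 against WT, and only Zfp42 and Tfcp2l1 are red.

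Untreated PCGF35 was lower than WT for all 9 members, as a mean over NPC days 3 and 6. Both untreated PCGF35 libraries lay below both WT libraries for all 9 at day 3, where 25.4% of all genes did so, and for all 9 at day 6, where 23% did so. Tfcp2l1 was the member called, where 1.7% of all genes were called lower. It read 123 and 140 CPM in WT and 65.3 and 50.7 in PCGF35 at day 3, and 89.3 and 108 against 44.1 and 40.8 at day 6 (2.295-fold lower, log2 -1.20, SE 0.34, adjusted p = 0.0414, edgeR). The call was lost when any of the 8 libraries was left out (adjusted p from 0.0547 to 0.155) and with no filter on low counts (0.061). Tbx3 read 14.1 and 13.4 CPM in WT and 4.97 and 4.82 in PCGF35 at day 3, and 11.3 and 14.2 against 3.48 and 6.20 at day 6 (log2 -1.46, SE 0.46, adjusted p = 0.0711). With the block 4 members were called, Klf5, Esrrb, Tfcp2l1 and Tbx3, where 10.6% of all genes were. Without clones F6 and G3, which enter this comparison only through the shared estimate of spread, the Tbx3 difference was again log2 -1.46. Of 5 endoderm markers tested in this comparison 2 were called higher in PCGF35, Foxa2 and Sox17, and 0 lower. Their summed level was 5.59 and 14.0 CPM in WT and 10.1 and 51.7 in PCGF35 at day 3, and 8.49 and 34.6 against 39.0 and 142 at day 6. Of the Wnt and TCF7L1 axis Axin2 was called higher (log2 0.51). These 3 genes were named after their values were seen, and the part of such cells in the members' levels was not tested. The degron line without dTAG-13 thus lay below its parental line, and the comparisons of dTAG-13 and of SPOC in this line share these untreated libraries. The study does not say that PCGF35 or DelPID was differentiated beside WT. In either comparison with WT, a line effect and a difference between culture runs cannot be told apart.

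DelPID against WT called no member (7.48% of all genes called), with 8 of 9 differences positive and a median of log2 0.53 against -0.018 for all genes. Nanog was nearest, at 28.3 and 25.1 CPM in WT and 29.9 and 49.7 in DelPID at day 3, and 21.2 and 25.9 against 25.8 and 47.7 at day 6 (log2 0.64, SE 0.29, adjusted p = 0.174, edgeR). DelPID lay above WT without overlap for 2 members at day 3 (21.6% of all genes) and 5 at day 6 (19% of all genes). DelPID replicate 1 was the shallower library on both days. Without clones F6 and G3 the difference was log2 0.65 for Nanog and 0.57 for Zfp42.

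The fragments that could be assigned to a genome show how the Dom and Cast copies of the members fell. The change of the Dom to Cast ratio between ES day 0 and NPC was tested in the edgeR model over 14340 genes with enough allelic counts. By day 6, 3 members were called, Zfp42, Esrrb and Klf5, where 13.5% of all genes were. By day 3, 2 were called, Esrrb and Prdm14, where 14.2% of all genes were. Nanog, Klf2, Klf4, Tfcp2l1 and Tbx3 were called at neither day.

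Zfp42 turned towards Dom. Its Dom share was 32.3% and 31.2% in untreated PCGF35 at ES day 0, 40.5% and 40.0% at NPC day 3 and 54.9% and 54.1% at NPC day 6. With dTAG-13 it was 32.5% and 27.6%, then 39.8% and 41.1%, then 60.5% and 57.9%. In WT it was 32.1% and 32.8% at NPC day 3 and 36.5% and 36.7% at NPC day 6. The NPC day 6 libraries were above the ES day 0 libraries of their arm or clone in every arm that has both (log2 change of Dom over Cast 0.81, SE 0.11, adjusted p = 2.63e-06, edgeR). In untreated PCGF35 5.68% of the Cast level and 14.6% of the Dom level of ES day 0 were left at day 6, so that both copies fell.

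Chromosome 8 as a whole had a Dom share near 35% (median 35.5%), and near 50% in clone G3 (49.9% to 50.9%), where Zfp42 read 50.3% at ES day 0 and 54.1% at NPC day 6. The whole-chromosome share hardly moved between stages (medians 35.2% at ES day 0 and 35.4% at NPC day 6), unlike that of Zfp42. Chromosome 12 had a Dom share of 32.8% to 35.8%. The other chromosomes that hold members had medians of 51.7% to 53.3%, with clones C11, D9 and G3 lower on chromosome 6 in some or all of their libraries. Clone C11, which has ES libraries only, was also lower on chromosome 14 (44.9% in both) and on chromosome 1 (50.2% and 50.3%).

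Esrrb turned towards Cast. Its Dom share was 25.8% to 33.1% at ES day 0 (median 29.8%) and 19.2% to 30.0% at NPC day 6 (median 23.9%), while chromosome 12 stayed at 34.0% and 33.8% (log2 change -0.45, SE 0.058, adjusted p = 3.19e-07, edgeR). Klf5 went from a median of 59.0% (49.0% to 65.2%) to 51.5% (44.2% to 56.7%), at 51.9% and 51.8% for chromosome 14 (log2 change -0.46, SE 0.067, adjusted p = 7.09e-07). The lowest ES day 0 share of Klf5 was that of clone C11, whose chromosome 14 share is given above. Without C11, left out after seeing the data, the Klf5 change was -0.47 (SE 0.063, adjusted p = 1.54e-07, edgeR), and the members called at each day were the same, where 13.8% of all genes were called at day 3 and 13.2% at day 6. Prdm14 was the most skewed member, with a median Dom share of 14.9% at ES day 0, 26.7% at NPC day 3 and 18.8% at NPC day 6 (log2 change to day 3 0.97, SE 0.17, adjusted p = 7.89e-05). Its lowest NPC day 6 library, DelPID replicate 1, held 30 allelic fragments.

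**Figure D4:**
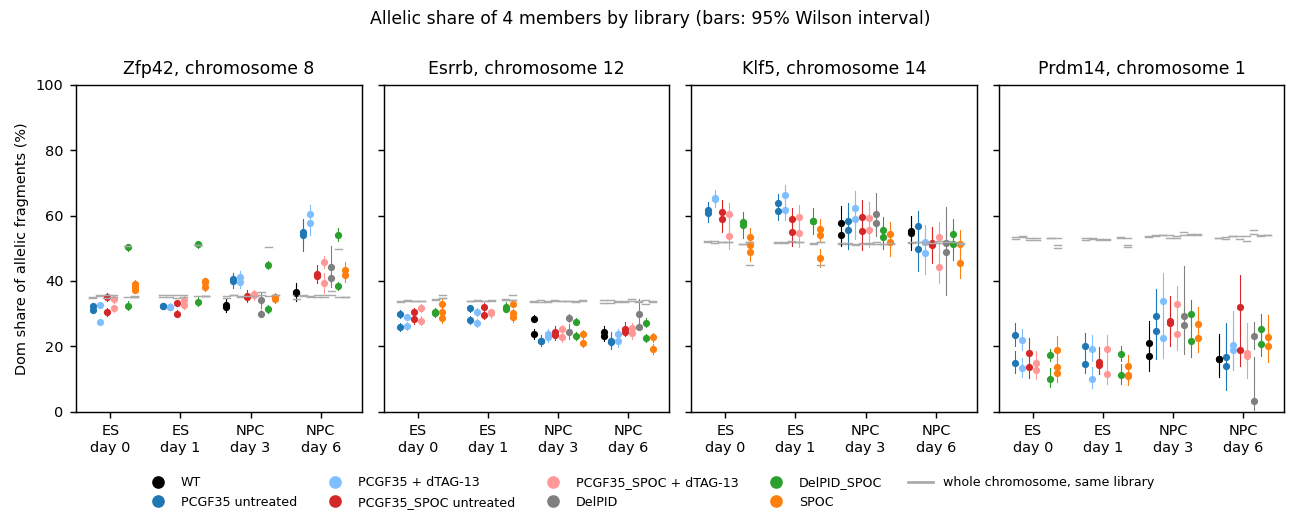
Dom share of the allelic fragments of Zfp42, Esrrb, Klf5 and Prdm14 in each library (percent), by stage and coloured by line and treatment, with 95% Wilson intervals for counting error. Grey dashes give the Dom share of the whole chromosome in the same library. Zfp42 rises to 54.1% to 60.5% in the PCGF35 libraries at NPC day 6 while chromosome 8 stays near 35%.

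The genes of the pathways around the members were counted in the same comparison. Of 8 genes of the LIF and STAT3 axis, 5 were lower and 1 higher at NPC day 6, with a median of log2 -0.38, among them Socs3, the feedback inhibitor and STAT3 target (-2.32), Pim1 (-0.78) and the kinase Jak1 (-0.38). Of 6 genes of the Wnt and TCF7L1 axis 2 were higher, Tcf7l1 itself, the repressor of Nanog, Esrrb and Klf2 (1.48), and Axin2 (0.44), and 0 were lower. Of 16 other naive state genes 9 were lower and 2 higher (median -0.88), with Spp1 (-1.86), Dppa5a (-1.54) and Tet2 (-1.48) the furthest. In this comparison, as above, 29.4% of all genes were lower and 29.4% higher.

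Of 5 core pluripotency genes tested, 2 were higher, Utf1 (log2 0.97) and Sall4 (0.45), and 1 was lower, Dppa2 (-0.67). Sox2 was at 0 in all 58 libraries and lies within Sox2ot on the same strand, so that its level could not be read. Of 10 formative and primed genes 8 were higher and 0 lower (median 1.13), led by Sox3 (2.28), Fgf5 (2.26) and Sall2 (1.91). Of 12 regulators of exit 6 were higher and 3 lower, with Mbd3 (0.91), Etv4 (0.75) and Etv5 (-0.50) the furthest.

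Markers of other cells were counted at the same stages. Of 6 neural precursor markers tested 4 were higher and 0 lower. Of 6 fibroblast markers, the cell type of the feeders, 2 were higher and 1 lower, and their summed level was 2.16 to 28.4 CPM at ES day 0 and 1.62 to 133 CPM at NPC day 6, highest in clone F10 with dTAG-13. Of 5 endoderm markers 4 were higher, with sums of 3.33 to 19.6 CPM at ES day 0 and 5.25 to 176 CPM at NPC day 6, highest in PCGF35 with dTAG-13. Of 2 mesoderm markers tested 1 was lower, of 3 trophoblast markers 2, of 4 2-cell-like markers 4 and of 4 germ line markers 4. With the SPOC mutation at NPC day 6 the lists gave 3 genes called, all higher, Fbxo15 (0.55), Tfe3 (0.65) and Dazl (0.92), and no neural, fibroblast or endoderm marker. The median difference at that day was log2 -1.35 over 6 fibroblast and -1.03 over 5 endoderm markers, against 0.011 for all genes. At NPC day 3 the lists gave 4 genes called, the neural marker Pax6 (1.54) and the trophoblast marker Tfap2c (0.86) higher, and Axin2 (-0.53) and Dnmt3a (-0.59) lower. The part of these cell types in the members' levels was not tested.

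The members varied together. Over the 28 group means, which share clones and libraries prepared together, pairs of members had Pearson correlations of log2 CPM from 0.72 (Klf5 and Zfp42) to 0.97 (Tfcp2l1 and Tbx3). Over the 16 NPC groups alone they ran from 0.33 (Klf5 and Zfp42) to 0.93 (Tfcp2l1 and Prdm14). Tfcp2l1 was nearest to the mean standardized profile of the 9 (r = 0.98) and Zfp42 furthest (r = 0.88). Outside the members, of 12302 genes with at least 5 CPM in a group, the most similar profiles were those of Aard (r = 0.956), Best3 (0.954), Cep55 (0.948), Ccdc113 (0.945) and Mtm1 (0.945). Mtm1 fell from a mean of 212 CPM at ES day 0 to 85.9 CPM at NPC day 6 over the arms.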

How the data were processed

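The deposited count files give, per library, fragments per gene in total and on each parental genome. The authors removed rRNA reads with Bowtie2 2.3.2, aligned the rest with STAR 2.4.2a to mm10 masked at SNPs, split them between genomes with SNPsplit and counted whole transcripts, introns included, with featureCounts by strand. From these counts CPM with TMM scaling were computed, and edgeR 4.0.16 (R 4.3.3) quasi-likelihood tests were fitted over all 58 libraries with 1 mean per group, on genes that passed the low-count filter, with Benjamini-Hochberg adjustment over all genes tested and a threshold of 0.05. Intervals are 95%. Groups came from the labels. The members and gene lists were chosen with earlier results of these data known. Named genes are the 9 members, the furthest genes of each list, and the 5 genes nearest the members' mean profile over groups. The lists were the LIF and STAT3 axis, the Wnt and TCF7L1 axis, other naive genes, core, formative and exit regulator genes, and markers of neural, fibroblast, endoderm, mesoderm, trophoblast, 2-cell-like and germ line cells.

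Clone names pair libraries in the lines named with SPOC. In PCGF35, replicate numbers were taken to pair treated and untreated libraries within a day. The study cultured these in parallel, but the labels do not state that the numbers match. Deviations of paired libraries correlated at -0.074 to 0.648 in SPOC, 0.222 to 0.885 in PCGF35_SPOC, 0.309 to 0.844 in DelPID_SPOC and 0.258 to 0.734 in PCGF35. No 2 replicates agreed within sampling noise (lowest chi-square per degree of freedom 11.5). Where replicates are not clones, p-values measure the spread between these libraries, which may be technical. Intervals on shares cover counting error only. DESeq2 1.42.0 was an alternative. Fits without a library kept the gene filter and trended dispersion of the whole fit. The fits were tested on simulated data. A gene of the neural list is not reported here by name. Columns of the files that belong to no sample here numbered 0.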

Additional observations from a re-analysis of the deposited data

Results flagged for a closer look

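The share of the Klf2 level of ES day 0 left at NPC day 6 was above 100% in both clones of DelPID_SPOC (mean 123%) and below it in both libraries of untreated PCGF35 (16.1%), of PCGF35 with dTAG-13 (42.7%) and of SPOC (82.4%). The dTAG-13 difference had opposite signs in PCGF35 and PCGF35_SPOC for 3 members. For Nanog at ES day 0 it was log2 -0.060 and 0.20. For Esrrb at NPC day 6 it was 0.67 and -0.07. For Tfcp2l1 at ES day 0 it was -0.28 and 0.09. Each was noted because every library of one group moved one way and every library of the other the opposite way. None of these differences between groups was tested.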

How the results depend on the processing

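Counts of members called were recomputed under each alternative for the 13 comparisons. The falls from ES day 0 to NPC days 3 and 6 (9 members each) and the fall of Zfp42 from day 3 to day 6 (1 member) kept their counts under every alternative run. With the replicate block (clone or parallel culture), the SPOC mutation gave 2 members at NPC day 3, 3 at NPC day 6 and 1 in ES cells, and PCGF35 against WT gave 4. As said above, these block counts between lines do not cover the spread between clones or cultures. The block changed no other call of the 13 in the fit over all libraries. With DESeq2 these 4 comparisons gave 1, 3, 1 and 3. With no filter on low counts PCGF35 against WT gave 0. In a fit on the groups compared alone, SPOC at NPC day 6 gave 0, DelPID against WT 1 and PCGF35 against WT 8. With the replicate block in such a fit, doxycycline in ES cells gave 4, dTAG-13 in PCGF35 5, SPOC at NPC day 3 2, SPOC at NPC day 6 4, DelPID against WT 1 and PCGF35 against WT 8. Without clones F6 and G3, chosen after seeing the data, DelPID against WT gave 2 and PCGF35 against WT 8. Without 1 library, counts ran from 0 to 1 for SPOC at NPC day 3, from 0 to 5 for SPOC at NPC day 6 and from 0 to 1 for PCGF35 against WT. The share of all genes called is given above for the block over all libraries, and for the fit with the block on PCGF35 alone. For the other alternatives it is not given, here or above, so that their counts cannot be set against it. No value changed sign as a call. The cause of these changes was not tested. The number of libraries per group, 2 in most, and a depth of 2.29 M fragments in the shallowest limit the precision of single members.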
